A study of Mus musculus with 288 samples.

Results

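Daily rhythms of RNA were compared between white fat and lung of mice that could eat in daylight hours only. The comparison rests on 48 of the 288 libraries of the study, 24 from white fat and 24 from lung, chosen by their labels: genotype Alb-Cre, regimen daytime-fed, and tissue. Genes were matched by symbol, and the 13243 symbols listed in both tissues' tables were kept (14353 are listed for white fat and 14343 for lung). The mice were of strain C57BL/6, 3 months old, kept in 12 h of light and 12 h of darkness, and fed in the light phase alone for 30 days. All of them carried Alb-Cre, a Cre recombinase driven by the promoter of albumin, a gene of hepatocytes. In the study this genotype is the control for a liver knockout of Bmal1. The same genotype fed ad libitum (24 white fat and 24 lung libraries) is used here only to set the daytime-fed values beside those of mice with food at all hours. Each tissue has 2 libraries, lettered A and B, at each of 12 time points (0 to 22 h). How hour 0 relates to the light cycle is not labelled, and hours are given as labelled. The fat depot and the animals are not named either, so a p-value speaks of the spread among libraries, which may be technical.

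The circadian clock of a cell is a loop of transcription factors. BMAL1 (gene Arntl) and CLOCK switch on the Per and Cry genes, whose products then block them, and also the REV-ERB genes Nr1d1 and Nr1d2, which repress Arntl. The RORs compete with the REV-ERBs at the same sites. The outputs Dbp, Tef and Hlf and their antagonist Nfil3 act on shared sites called D-boxes. The clock of the brain follows light, while clocks in peripheral organs also follow meals, and adipose tissue switches each day between storing lipid after meals and releasing it in fasting.

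Total counts were 2043874 to 5040306 per white fat library (median 3510720) and 1104737 to 2850631 per lung library (median 2071915.5). The tissue labels hold up against marker genes: 9 adipocyte markers summed to a median of 62919 CPM (counts scaled to a common library total) in white fat and 551 CPM in lung, and 4 club cell markers of the airway to 24 CPM in white fat and 48658 CPM in lung. Some libraries stand apart. White fat library 0B had 10.8% of its counts on symbols that only the white fat table lists, against 0.157% to 0.322% in the other 23 white fat libraries, and it held 9152 CPM of the epididymal gene Lcn5 and 11444 CPM of Lcn8, with other libraries at most at 122 and 135 CPM. Its Adipoq level, an adipocyte hormone, was 1780 CPM against 5731 to 8084 CPM elsewhere in white fat. In lung, libraries 4A, 4B, 6B, 14A and 20A carried 1032 to 5756 CPM of summed skeletal muscle markers (Acta1, Ckm, Mylpf, Tnnt3), against a median of 50.6 CPM. The main counts that move without these libraries are given both ways, as are many but not all of the lists and single genes that move. In bulk tissue, fewer cells of a type and less RNA per cell cannot be told apart.

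White fat had many more genes with a 24 h rhythm than lung. A gene was called rhythmic when the cosine and sine of a 24 h cycle together passed an adjusted p of 0.05 in edgeR's quasi-likelihood F test, fitted to all 48 libraries at once and adjusted by Benjamini-Hochberg over the 10949 genes that passed the filter on low counts. The rhythmic genes in daytime-fed white fat numbered 1866 (17%) and the rhythmic genes in daytime-fed lung 39 (0.356%). In white fat 3550 genes and in lung 828 had an unadjusted p under that threshold. Without library 0B the counts were 1668 in white fat (1345 of them among the 1866) and 61 in lung (all 39 among them). Thinning all libraries to the depth of the shallowest left 1080 in white fat and 36 in lung, and fitting each tissue alone gave 1022 and 73. White fat fitted alone without library 0B gave 1626. Lung fitted alone without the lung libraries that stand apart gave 56. Daily range was measured as the peak-to-trough of a cosine fitted to log2 CPM. Its median over all tested genes was 0.31 in white fat and 0.21 in lung on the log2 scale, while among the called genes it was 0.65 in white fat and 1.10 in lung. The unexplained spread around the fitted curve had a median SD of 0.30 in white fat and 0.27 in lung (log2). With each tissue fitted alone, edgeR's common coefficient of variation between libraries was 0.212 in white fat and 0.163 in lung. The main fit shared each gene's spread between the tissues. The rhythm itself, tested as a difference of the cosine and sine terms between tissues, differed for 257 genes (2.35%), with the wider range in white fat for 231 and in lung for 26.

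**Figure D1:**
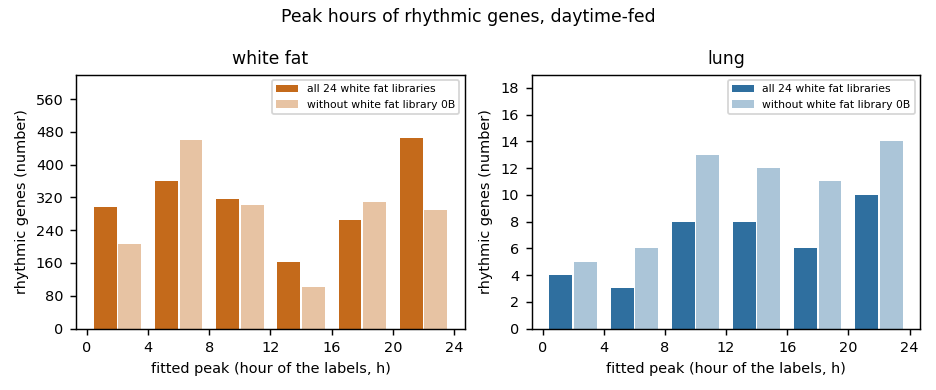
Number of rhythmic genes by fitted peak hour in 4 h bins, white fat left and lung right on different vertical scales; dark bars use all 24 white fat libraries and pale bars leave out library 0B. White fat peaks fell least often between 12 and 16 h (162 genes, 101 without 0B), and the largest bin moved from 20 to 24 h (464 genes) to 4 to 8 h (459 genes) when 0B was left out.

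The peak hours of the white fat genes spread over the whole day. With all libraries, 464 of 1866 peaked between 20 and 24 h and 360 between 4 and 8 h. Without library 0B these bins held 290 and 459 of 1668. The trough of the distribution, between 12 and 16 h, was the same either way. In lung, 19 of the 39 genes peaked from 6 to 18 h and 15 from 18 to 24 h. Of the called genes 19 were shared, which is 1.02% of the white fat genes and 48.7% of the lung genes. Of these, 10 peaked within 3 h of each other in the 2 tissues, 7 were 3 to 9 h apart and 2 over 9 h apart. Without library 0B 26 genes were shared, of which 10 peaked within 3 h, 12 were 3 to 9 h apart and 4 over 9 h apart.

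Core clock genes were rhythmic in both tissues and peaked at different hours. The list held 19 clock genes, of which 18 are in both tables and 15 passed the filter on low counts (Npas2, Clock and Rora did not, and Bhlhe41 is not in both tables). Of the 15, 10 were rhythmic in white fat, 8 in lung, and 10 differed in rhythm between the tissues, against the 17%, 0.356% and 2.35% of all genes given above. Without library 0B the counts were 11, 9 and 11, against 15.3%, 0.559% and 2.78% of all genes. The median peak-to-trough of the 15 was 0.80 in white fat and 1.12 in lung (log2), and the lung value was the larger for 12 of 15.

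The promoters of 5 of these genes and outputs are shown. They were chosen from those that carry, within 300 bases, an exact copy of a binding motif named for the clock factors. Their fitted peaks lie far apart between the tissues. No cutoff was set for that distance. The other genes with a motif are not shown. Their fitted white fat minus lung peaks were −10.8 h (Lonrf3), −6.5 h (Tef), 6.5 h (Per1), −5.7 h (Cry1) and −3.6 h (Tspan4). The sequences are RefSeq windows on GRCm38.p6 (the assembly called mm10), from 250 bases before to 50 after an annotated start, 5′ to 3′ on the gene's strand. Capitals mark the motif. Motifs were searched on both strands: TAGGTCA (the site of RORs and REV-ERBs), TTATGTAA (a D-box) and CACGTG (an E-box, bound by CLOCK and BMAL1). They do not overlap each other in these windows. Arntl (chr7:113207261-113207560, + strand), Leo1 (chr9:75441274-75441573, + strand) and Nfil3 (chr13:52980990-52981289, − strand) hold TAGGTCA, Per3 (chr4:151044616-151044915, − strand) holds TTATGTAA at 2 places, and Ciart (chr3:95882179-95882478, − strand) holds CACGTG at 3.
Arntl: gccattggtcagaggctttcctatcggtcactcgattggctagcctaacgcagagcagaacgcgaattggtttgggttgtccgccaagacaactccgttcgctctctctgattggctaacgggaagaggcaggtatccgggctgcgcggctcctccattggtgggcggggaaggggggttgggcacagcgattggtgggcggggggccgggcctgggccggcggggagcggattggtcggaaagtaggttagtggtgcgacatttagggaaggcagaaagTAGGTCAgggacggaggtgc
Leo1: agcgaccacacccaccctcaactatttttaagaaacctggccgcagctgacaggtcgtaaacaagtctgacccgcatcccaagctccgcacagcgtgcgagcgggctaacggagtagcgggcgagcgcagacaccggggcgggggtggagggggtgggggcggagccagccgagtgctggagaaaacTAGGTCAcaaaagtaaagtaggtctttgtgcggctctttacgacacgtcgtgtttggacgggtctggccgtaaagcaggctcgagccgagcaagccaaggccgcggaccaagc
Nfil3: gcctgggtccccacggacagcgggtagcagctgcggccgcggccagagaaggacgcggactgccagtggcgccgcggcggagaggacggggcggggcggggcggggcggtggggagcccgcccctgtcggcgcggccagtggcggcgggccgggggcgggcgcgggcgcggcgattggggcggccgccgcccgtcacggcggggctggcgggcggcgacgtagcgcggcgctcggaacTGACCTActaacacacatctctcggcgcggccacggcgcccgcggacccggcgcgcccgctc
Per3: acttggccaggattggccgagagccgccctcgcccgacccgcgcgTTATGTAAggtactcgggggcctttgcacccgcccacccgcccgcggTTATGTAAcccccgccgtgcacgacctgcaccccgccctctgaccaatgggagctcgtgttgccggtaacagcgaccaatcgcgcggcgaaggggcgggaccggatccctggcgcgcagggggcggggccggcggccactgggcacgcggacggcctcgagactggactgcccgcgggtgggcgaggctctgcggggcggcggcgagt
Ciart: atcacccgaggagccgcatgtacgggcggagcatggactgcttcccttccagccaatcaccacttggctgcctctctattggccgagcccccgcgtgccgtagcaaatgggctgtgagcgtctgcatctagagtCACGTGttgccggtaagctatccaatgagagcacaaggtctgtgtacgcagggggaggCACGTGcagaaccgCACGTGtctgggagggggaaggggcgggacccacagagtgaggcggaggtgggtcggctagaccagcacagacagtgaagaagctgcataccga

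Of the 19 clock and clock-output genes tested that have a window, TAGGTCA was found for these 3 alone, TTATGTAA for Per3 alone, and CACGTG for 6 (Ciart, Cry1, Lonrf3, Per1, Tef and Tspan4). Over all 32851 windows of the table the shares were 2.61%, 0.938% and 7.15%. These shares count windows, while the counts before them are of genes, so they are not in like units. The 19 genes have 26 windows, and a gene was counted if any of its windows held the motif. Arntl has 2 windows, of which 1 is shown. In Arntl the motif starts 30 bases after the annotated start, in Leo1 63 bases before it and in Nfil3, on the opposite strand, 12 bases before it. A match of letters describes the window and is not a measured binding site.

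Arntl, which encodes BMAL1, was in near antiphase between the tissues. In white fat its lowest, median and highest libraries had 4.65, 10.9 and 26.9 CPM, and in lung 2.97, 10.1 and 33.9 CPM. The highest mean of 2 libraries fell at 12 h in white fat (25 CPM) and at 22 h in lung (29.5 CPM), so the ranges overlapped while the hours did not. The fitted peak was 11.8 ± 1.1 h with a peak-to-trough of 1.11 ± 0.32 log2 in white fat (adjusted p = 0.0135), and 22.7 ± 0.6 h with 1.99 ± 0.33 log2 in lung (adjusted p = 0.000473; errors are SE, n = 24 libraries a tissue). The rhythm differed between tissues with an adjusted p of 2.36e-05. The other genes printed with TAGGTCA were Leo1, a subunit of the PAF1 elongation complex, and Nfil3, the repressor of D-boxes. Leo1 peaked at 10.3 ± 0.7 h in white fat and at 22.8 ± 0.9 h in lung (difference adjusted p = 2.77e-05), though its lung rhythm alone missed the threshold (adjusted p = 0.161). Nfil3 had 3.62 to 50.5 CPM in white fat, where it peaked at 7.8 ± 0.8 h, and 1.65 to 17.8 CPM in lung, where its fitted peak was 21.0 ± 1.2 h without passing the test (adjusted p = 0.507). The difference did pass (adjusted p = 0.00184).

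**Figure D2:**
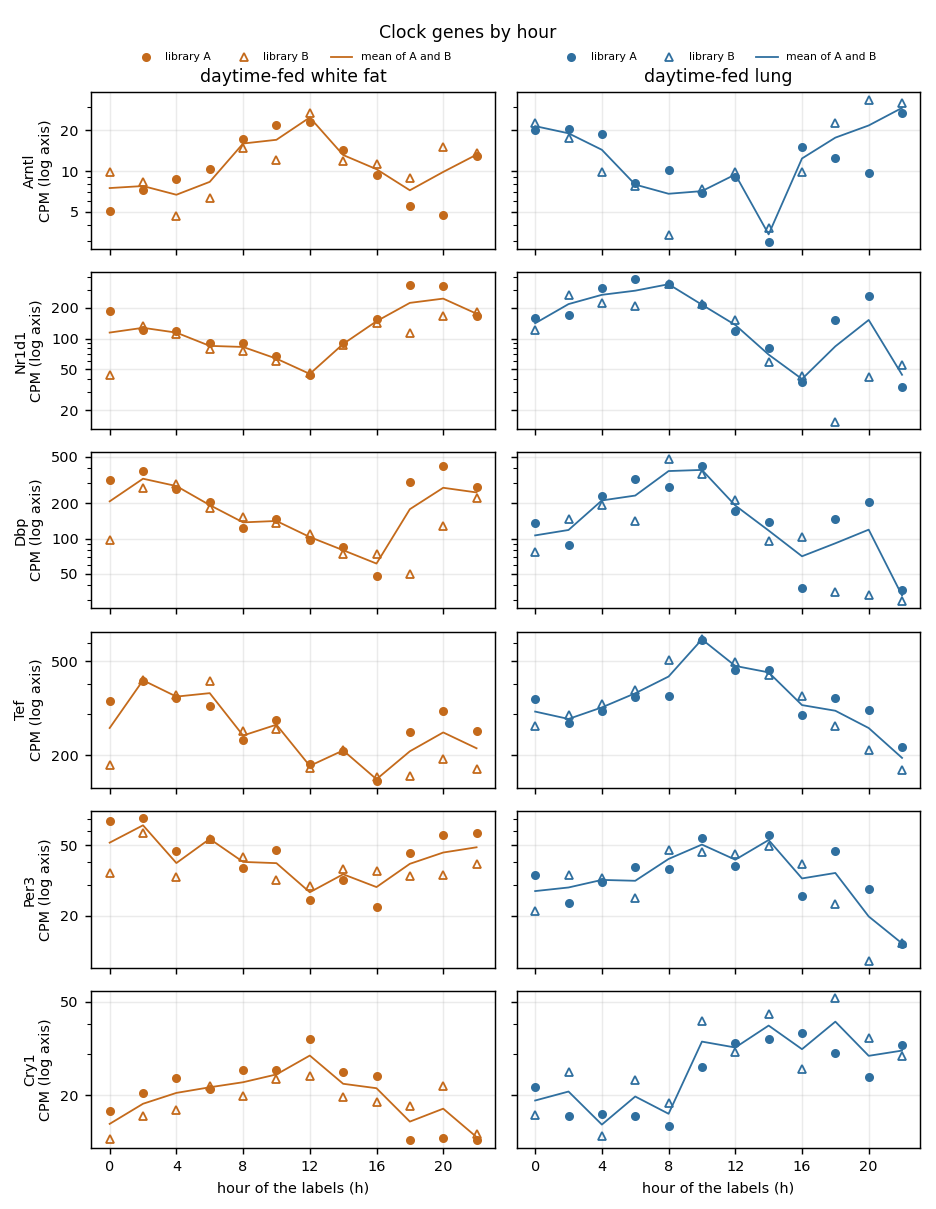
CPM (log axis) of 6 clock genes by hour of the labels, daytime-fed white fat left and lung right; filled circles are libraries A, open triangles libraries B, and the line is their mean. Arntl is highest at 12 h in white fat (25 CPM) and at 22 h in lung (29.5 CPM), and for Nr1d1 and Dbp libraries A and B part at 18 and 20 h.

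The Per and Cry genes encode the repressors of the loop. Per3 ranged from 22.5 CPM through a median of 38.2 to 71.0 CPM in white fat, and from 11.2 through 34.0 to 57.3 CPM in lung. It was highest at 2 h in white fat (mean 64.9 CPM) and at 14 h in lung (mean 53.6 CPM), with fitted peaks of 1.7 ± 0.9 h and 10.6 ± 0.8 h in white fat and lung and a difference adjusted p of 0.000183. Cry1 peaked at 10.2 ± 0.7 h in white fat and at 16.0 ± 0.6 h in lung, with peak-to-troughs of 0.79 ± 0.14 and 1.15 ± 0.19 log2 in the same order (difference adjusted p = 0.00161). Per2 was rhythmic in lung (peak 13.6 ± 0.8 h, 1.30 ± 0.26 log2, adjusted p = 0.0228). In white fat its fitted peak was 22.4 ± 1.7 h and its adjusted p 0.14, or 0.0407 without library 0B. Its lung call (Per2 lung rhythm) was lost without the white fat and lung libraries that stand apart (adjusted p = 0.0586). That call changed in 11 of 25 alternatives tried. Cry2 was rhythmic in white fat (7.5 ± 1.3 h, adjusted p = 0.0394) and not called in lung (fitted peak 12.3 ± 1.0 h, adjusted p = 0.252), and Per1 passed in neither tissue. The white fat call of Cry2 changed in 9 of 25 alternatives. The Cry2 difference did not pass (adjusted p = 0.204), but did without library 0B (adjusted p = 0.0436).

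Nr1d1, the gene of REV-ERBα, had its lowest, median and highest library at 43.8, 112 and 333 CPM in white fat and at 15.4, 156 and 379 CPM in lung. It was lowest at 12 h in white fat (mean 45.2 CPM), where Arntl was highest, and at 16 h in lung (mean 40.2 CPM). Its fitted peak was 21.0 ± 0.8 h in white fat and 6.0 ± 0.7 h in lung, the peak-to-trough 1.53 ± 0.34 log2 in white fat and 2.75 ± 0.47 log2 in lung, and the difference had an adjusted p of 9.16e-05. Nr1d2, its close relative, differed between tissues too (adjusted p = 0.0168; fitted peaks 19.6 ± 1.9 h in white fat and 9.0 ± 0.9 h in lung), although neither tissue's own rhythm passed (adjusted p = 0.327 in white fat and 0.065 in lung). The Nr1d2 lung rhythm did pass without library 0B (adjusted p = 0.032), and its call changed in 8 of 25 alternatives tried. The call of the Nr1d2 difference changed in 6 of 23.

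Dbp and Tef, activators at D-boxes, both peaked about 6 h earlier in white fat. Dbp ranged over 48.3, 150 and 416 CPM (lowest, median, highest) in white fat, with 29.2, 145 and 478 CPM in lung. Its peak was 1.9 ± 0.8 h in white fat and 8.1 ± 0.6 h in lung, and the fat minus lung peak was −6.2 h (difference adjusted p = 0.00089). Tef, the most even of them, had 155 to 417 CPM in white fat and 173 to 625 CPM in lung, with peaks of 3.8 ± 0.7 h and 10.4 ± 0.5 h in white fat and lung and nearly equal peak-to-troughs of 0.99 ± 0.18 and 1.12 ± 0.14 log2 (difference adjusted p = 1.9e-05). Hlf was called in lung (peak 9.8 ± 0.7 h, adjusted p = 0.00403) and not in white fat (adjusted p = 0.16), and its difference did not pass (adjusted p = 0.128). Ciart, a repressor of CLOCK and BMAL1, had 0 to 9.19 CPM in white fat with a fitted peak at 23.5 ± 1.5 h, and 2.98 to 19.6 CPM in lung with a fitted peak at 9.6 ± 0.9 h. The lung rhythm alone missed the threshold (adjusted p = 0.46), while the difference passed (adjusted p = 0.00862). Bhlhe40, a further repressor, was called in white fat (peak 2.2 ± 1.8 h, adjusted p = 0.0359), and its difference was not. The white fat call of Bhlhe40 changed in 9 of 25 alternatives tried.

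**Figure D3:**
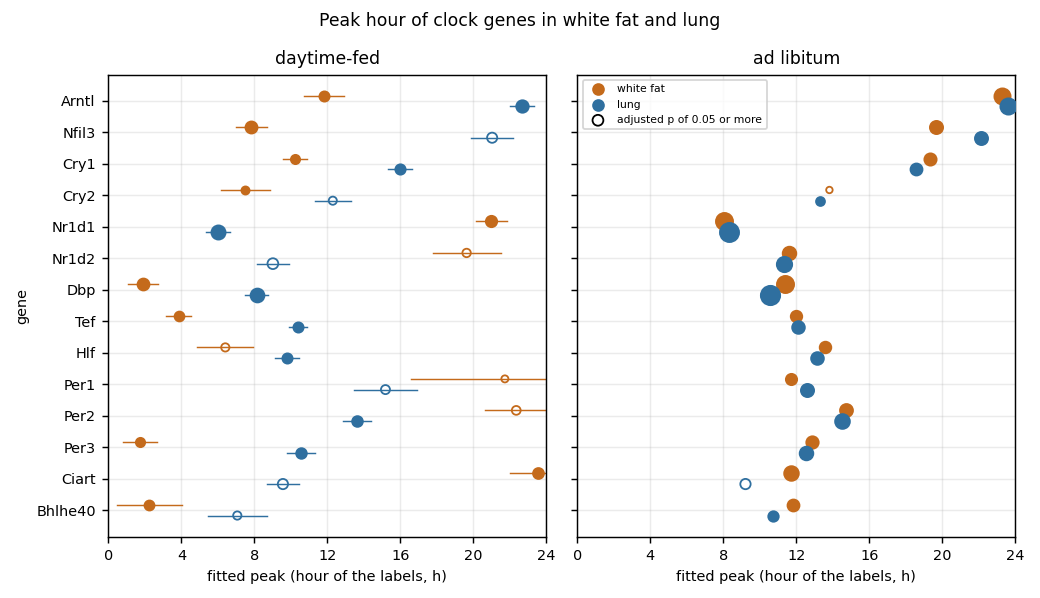
Fitted peak hour of 14 of the 15 clock genes, white fat above lung in each row, in daytime-fed mice (left, bars are SE, drawn within 0 to 24 h) and ad libitum mice (right); larger circles have a larger peak-to-trough, and open circles did not pass an adjusted p of 0.05. Over the 15 genes, white fat minus lung was −8.79 h in daytime-fed and 0.17 h in ad libitum mice.

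Taking the 15 genes as a set, with each gene weighted by its range in both tissues, the clock phase of white fat minus that of lung was −8.79 ± 0.95 h in daytime-fed mice (jackknife SE over 24 pairs of time and letter), and −7.96 ± 0.89 h over the 6 genes rhythmic in both tissues. In ad libitum mice it was 0.17 ± 0.22 h. Against ad libitum, the daytime-fed phase moved by −11.0 ± 0.75 h in white fat and by −1.84 ± 0.37 h in lung (jackknife SE over libraries). On a 24 h circle a shift near 12 h has no certain sign. The sample titles give each regimen a number of its own whose meaning is not stated, so what that number marks and the regimen cannot be told apart. For single genes, the white fat peak of Arntl was 11.8 h daytime-fed and 23.3 h ad libitum, and its lung peak 22.7 h and 23.6 h. Dbp peaked in white fat at 1.9 h daytime-fed and 11.4 h ad libitum, and in lung at 8.1 h and 10.6 h.

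The daily range of the clock genes was smaller in daytime-fed than in ad libitum mice in both tissues. Over the 15 genes, peak-to-trough as a root mean square was 1.05 ± 0.14 log2 in white fat and 1.44 ± 0.22 log2 in lung, a difference of −0.39 ± 0.30, whereas ad libitum it was 2.53 ± 0.10 in white fat and 2.97 ± 0.08 in lung, a difference of −0.43 ± 0.11. The daytime-fed order depended on the letter: among libraries A it was 1.40 in white fat and 1.16 in lung, and among libraries B 0.92 and 1.79. Libraries A and B parted in both tissues at 18 and 20 h, and in white fat also at 0 h, where library B is 0B (Nr1d1 185 CPM in A and 43.8 in B). At 18 h Nr1d1 had 333 CPM in library A and 113 in B of white fat, and 152 in A and 15.4 in B of lung. At 20 h it had 325 and 166 CPM in white fat, with 262 and 41.8 CPM in lung. Dbp at 18 h had 307 CPM in A and 50.2 in B of white fat, and 148 in A and 35.1 in B of lung. The A library was the higher in each of these pairs of Nr1d1 and Dbp. Arntl at 20 h went the other way, with 4.74 CPM in A and 15.0 in B of white fat. In lung it had 9.67 CPM in A and 33.9 in B. What sets the letters apart was not tested.

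Of the clock outputs, Tspan4, a tetraspanin of the plasma membrane, had the lowest p of all lung rhythms (peak 10.9 ± 0.4 h, 1.41 ± 0.14 log2, adjusted p = 3.12e-07), and in white fat it peaked at 7.3 ± 0.7 h with 0.99 ± 0.19 log2. The difference adjusted p was 0.00146. Usp2, a deubiquitinase, was rhythmic in white fat (peak 4.3 ± 0.7 h, 1.64 ± 0.28 log2, adjusted p = 2.48e-06) and not called in lung (0.39 ± 0.19 log2, adjusted p = 0.849), with a difference adjusted p of 0.00226. Tsc22d3, a gene induced by glucocorticoids, peaked at 9.1 ± 0.8 h in white fat with a fitted lung peak at 16.7 ± 1.2 h (difference adjusted p = 0.0174). Of the 8 tested output genes 6 were rhythmic in white fat (5 without library 0B), 2 in lung, and 5 differed, against 17%, 0.356% and 2.35% of all genes. Of the outputs, 3 differed without the white fat and lung libraries that stand apart.

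Outside the clock lists, the genes of lowest p in white fat were not called in lung. Trp53inp2, an autophagy factor (chr2:155381059-155389850 in GENCODE M21 on mm10), had 315, 1178 and 2160 CPM in its lowest, median and highest white fat library and 153, 199 and 257 CPM in lung. Its white fat peak was at 8.2 ± 0.4 h with 1.94 ± 0.23 log2 (adjusted p = 1.72e-09), beside 0.09 ± 0.11 log2 in lung, and the difference adjusted p was 7.62e-06. Osgin1, induced by oxidative stress, had 3.81 to 53.3 CPM in white fat with a peak at 7.9 ± 0.4 h (2.76 ± 0.28 log2), and 22.8 to 73.2 CPM in lung (0.51 ± 0.25 log2; difference adjusted p = 0.000647). Both therefore had their highest white fat values between 8 and 12 h. Pmepa1, an inhibitor of TGF-β signalling, peaked at 5.0 ± 0.5 h in white fat with 2.39 ± 0.32 log2. Trim67 (8.6 h), Mif4gd (8.8 h) and Dynll2 (11.3 h) peaked in the same part of the day, while Fbxo21, an F-box protein of ubiquitin ligases, peaked at 0.8 ± 0.5 h and Rasl11b, a Ras-like GTPase, at 22.4 ± 0.5 h. All of these stayed called without library 0B. Of the 12 genes that the naming rule gave, Adam28 and Cst8 had their values in library 0B (741 and 1204 CPM, against medians of 0.148 and 0 CPM). Without it Adam28 was still called (adjusted p = 0.014) and Cst8 was not (adjusted p = 0.0588). Akr1b7 had its highest value in library 2A (364 CPM, median 0.112 CPM).

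Among the 10 genes of lowest p for the difference between tissues, Cdkn1a, the cell cycle inhibitor p21, was rhythmic in both. It had 35.9, 97.5 and 234 CPM (lowest, median, highest) in white fat, with 60.7, 99.0 and 254 CPM in lung, and peaked at 14.1 ± 0.7 h in white fat and 22.5 ± 0.6 h in lung (difference adjusted p = 7.62e-06). Ad libitum, its peaks were 23.8 h in white fat and 22.9 h in lung. Dtx4, an E3 ligase of the Notch pathway, peaked at 12.3 ± 0.5 h in white fat and had a fitted lung peak of 21.1 ± 0.9 h (difference adjusted p = 1.88e-05), and ad libitum peaked at 0.7 h and 23.8 h in white fat and lung. The daytime-fed Dtx4 lung rhythm was not called (adjusted p = 0.36), but was without library 0B (adjusted p = 0.049). Smim5 (22.5 ± 0.6 h) and Gatsl3 (4.0 ± 0.7 h), whose product senses arginine, were rhythmic in white fat and not called in lung. Muc5b also came out of the rule, on a single value of 325 CPM in white fat library 0B, and lost the call without it (difference adjusted p = 0.375).

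Of 13 tested genes of insulin and glucose handling, 9 were rhythmic in white fat (8 without library 0B), 1 in lung (Pdk4), and 1 differed between tissues. These counts stand beside 17%, 0.356% and 2.35% of all genes. The median peak-to-trough of the 13 was 0.97 log2 in white fat and 0.36 in lung. Akt2, the insulin-signalling kinase of adipocytes, peaked at 6.8 ± 0.7 h (adjusted p = 0.000219), Pfkfb3, an activator of glycolysis, at 23.1 ± 1.1 h (adjusted p = 0.000331), and Irs2, an adaptor of the insulin receptor, at 22.2 ± 0.7 h (adjusted p = 0.00298). Irs2 had 5.84, 22.8 and 49.1 CPM in its lowest, median and highest white fat library and 13.5, 17.6 and 56.8 CPM in lung, lowest at 12 h in white fat. Pik3r1, a regulatory subunit of PI3-kinase, was in the opposite part of the day with a peak at 10.1 ± 1.3 h. Pfkfb3 was the gene of this list whose rhythm differed between tissues (0.13 ± 0.11 log2 in lung; adjusted p = 0.0308). Leptin (Lep), the satiety hormone of fat, had 216, 1050 and 2459 CPM in white fat and peaked at 8.0 ± 0.7 h with 1.92 ± 0.36 log2 (adjusted p = 0.00022). In lung it had 0 to 10.6 CPM.

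Of 19 tested genes of fatty acid and triglyceride synthesis, 7 were rhythmic in white fat and 1 in lung, and 0 differed between tissues, against 17%, 0.356% and 2.35% of all genes (2 without the libraries that stand apart, where the white fat count was 13). Pnpla3, a lipid droplet acyltransferase and lipase, ranged over 20.5, 130 and 339 CPM in white fat and peaked at 9.2 ± 0.7 h with 2.22 ± 0.43 log2 (adjusted p = 0.000119). Its lung level was 0 to 10.2 CPM. Scd2, a desaturase, peaked at 14.8 ± 0.9 h, Acly, which makes cytosolic acetyl-CoA, at 14.6 ± 1.1 h, and Agpat2, which makes phosphatidic acid, at 10.7 ± 0.9 h. Of the cholesterol genes, 7 of 17 were rhythmic in white fat (11 without library 0B), 0 in lung, and 1 differed (3 without library 0B). Sc5d (9.1 ± 0.7 h, adjusted p = 2.97e-05) and Hmgcs1 (8.4 ± 0.8 h, adjusted p = 0.0014) peaked within 3 h of each other. Dhcr7 differed between tissues (peak 11.5 ± 0.8 h in white fat, fitted peak 6.3 ± 0.8 h in lung; difference adjusted p = 0.0372).

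**Figure D4:**
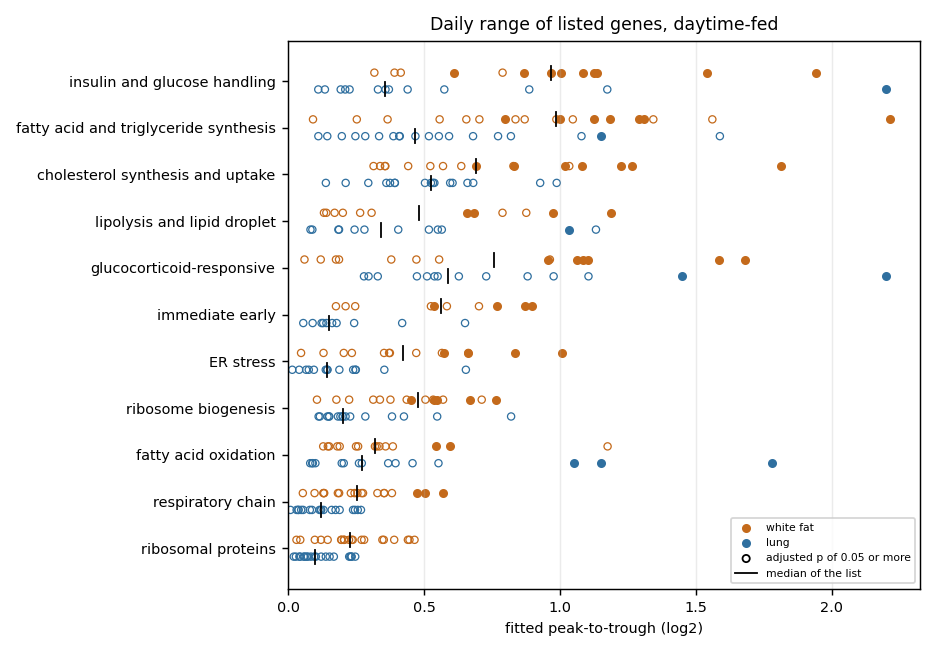
Fitted peak-to-trough (log2) of each tested gene in 11 gene lists, white fat above lung in each row; filled points passed an adjusted p of 0.05, open points did not, and black ticks are list medians. The white fat median exceeds that of lung in each list shown, as it does over all tested genes (0.31 in white fat and 0.21 in lung). Of the lists shown, the white fat median is largest for fatty acid and triglyceride synthesis (0.99), insulin and glucose handling (0.97) and glucocorticoid-responsive genes (0.76). Some lists not shown had the larger median in lung, among them adipokines (0.44 in white fat and 0.90 in lung).

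The counts of the other lists stand beside the same 17% of all genes in white fat, 0.356% in lung and 2.35% for the difference. Of 12 lipolysis and lipid droplet genes 4 were rhythmic in white fat (5 without library 0B), 1 in lung, and 1 differed (3 without library 0B). Plin2, a coat protein of lipid droplets, peaked at 11.5 ± 1.3 h in white fat and had a fitted lung peak of 20.3 ± 0.7 h (difference adjusted p = 0.0293). Of 14 glucocorticoid-responsive genes 6 were rhythmic in white fat (4 without library 0B) and 2 in lung, and 3 differed (1 without the white fat and lung libraries that stand apart). Sgk1, a kinase that regulates ion channels, was rhythmic in white fat (20.0 ± 1.0 h, adjusted p = 0.000197). Lcn2, another of these, had 5856 CPM in library 0B against a median of 34.4 CPM and was not called without it (adjusted p = 0.283). ER stress genes counted 4 of 14 in white fat and 0 in lung, led by Ddit3, the factor CHOP, which peaked at 8.0 ± 0.7 h (1.01 ± 0.17 log2, adjusted p = 6.52e-05), and by Atf4 at 6.3 ± 1.0 h. The other two, Creld2 and Sdf2l1, were highest in library 0B (238 and 58.4 CPM, against medians of 38 and 6.4 CPM) and were not called without it (adjusted p = 0.667 and 0.787). Immediate early genes counted 4 of 10 in white fat (3 without library 0B) and 0 in lung, with Ier3 (2.6 ± 1.0 h) and Ier2 (4.5 ± 0.8 h) first. Of the 10, 1 differed (2 without library 0B, 0 without the libraries of both tissues that stand apart). Ribosome biogenesis counted 5 of 16 in white fat (4 without library 0B) and 0 in lung. The 20 ribosomal protein genes, 11 heat shock genes and 2 cold-inducible genes counted 0 in both tissues. Without library 0B, 1 ribosomal protein gene was called in white fat. Of 8 endothelial markers 3 were rhythmic in white fat and 0 in lung. The 3 peaked at different hours: Ramp2 at 8.2 ± 0.6 h (adjusted p = 3.29e-05), Egfl7 at 5.3 ± 1.2 h and Cldn5 at 20.1 ± 1.4 h. Their part in the other results was not tested.

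Of the 39 rhythmic genes of lung, the clock and clock-output lists held 10. These were 8 of the 15 clock genes tested and 2 of the 8 output genes tested, against 0.356% of all genes. Of 15 tested genes of fatty acid oxidation, 2 were rhythmic in white fat and 3 in lung (Cpt1a, Acot1, Acot2), against 17% and 0.356% of all genes. Without library 0B the counts were 3 and 3, in the same order of tissues. Angptl4, a fasting-induced inhibitor of lipoprotein lipase (chr17:33773750-33781830), had 276, 893 and 1686 CPM in white fat, beside 9.19, 99.2 and 257 CPM in lung. It had the widest range of the lung genes, 3.21 ± 0.45 log2 peaking at 19.3 ± 0.5 h (adjusted p = 6.06e-05), beside 0.92 ± 0.39 log2 in white fat (fitted peak 17.3 ± 1.6 h, adjusted p = 0.283). The difference adjusted p was 0.0161.

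**Figure D5:**
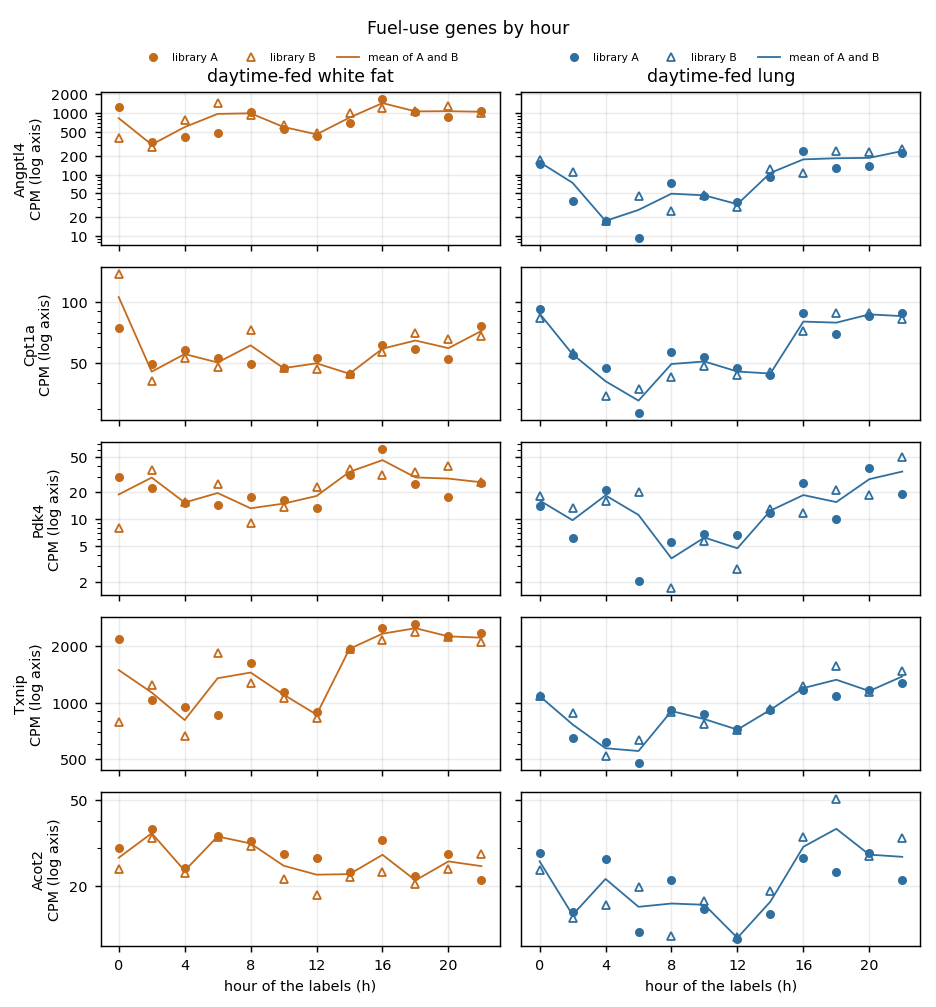
CPM (log axis) of 5 fuel-use genes by hour of the labels, daytime-fed white fat left and lung right; filled circles are libraries A, open triangles libraries B, and the line is their mean. In lung the means of Angptl4 and Pdk4 are highest at 22 h (241 and 34.2 CPM).

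Cpt1a, which carries fatty acids into mitochondria, peaked at 22.4 ± 1.3 h in white fat and 20.0 ± 0.5 h in lung, where its range was 1.15 ± 0.16 log2 (adjusted p = 0.000328). Its white fat call was lost without library 0B (adjusted p = 0.109). Pdk4, which shuts pyruvate out of the Krebs cycle, peaked at 18.1 ± 1.2 h in white fat and 21.0 ± 0.8 h in lung, and Txnip, a brake on glucose uptake, at 18.4 ± 0.8 h and 18.8 ± 0.6 h in white fat and lung. Cpt1a, Pdk4 and Txnip did not pass the test of a rhythm difference between tissues (adjusted p = 0.176, 0.251 and 0.93), though Cpt1a did without library 0B (adjusted p = 0.0376). The thioesterases Acot1 (19.9 ± 0.5 h) and Acot2 (20.2 ± 0.9 h) and the isomerase Eci2 (21.0 ± 0.6 h) had lung peaks in the same hours. Of these, Acot2 (difference adjusted p = 0.00899) and Eci2 (0.0482) differed from white fat. The Eci2 difference lost the call without library 0B (adjusted p = 0.0574).

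In ad libitum lung the fitted range of Angptl4 was 1.61 log2 with a peak at 20.1 h (adjusted p = 0.0096), that of Cpt1a 0.29 log2 (adjusted p = 0.454) and that of Pdk4 0.42 log2 (adjusted p = 0.726). In the fit with both regimens the interaction of tissue and feeding did not pass for these 3 genes (adjusted p from 0.206 to 0.344) and passed for Eci2 (adjusted p = 0.0186), whose lung range was 0.58 log2 daytime-fed and 0.17 log2 ad libitum. The range in daytime-fed lung against ad libitum lung was not tested by itself, and 10 of the ad libitum lung libraries held 1618 to 5324 CPM of the skeletal muscle markers, whose part in these values was not tested.

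Of the rest of the lung genes, Spon2, a matrix protein, had 8.68, 14.9 and 26.3 CPM in white fat, beside 7.21, 27.4 and 72.3 CPM in lung, with a lung peak at 0.0 ± 0.5 h (2.20 ± 0.30 log2, adjusted p = 5.73e-06; difference adjusted p = 0.000597). Elastin (Eln) peaked at 2.0 ± 1.3 h in white fat and 23.7 ± 0.7 h in lung. Tcf21, a factor of lung fibroblasts, peaked at 15.2 ± 0.6 h in lung and Igfbp3, a carrier of insulin-like growth factors, at 2.4 ± 0.7 h. Without the white fat and lung libraries that stand apart, the Tcf21 lung rhythm (adjusted p = 0.0527) and the Txnip lung rhythm (adjusted p = 0.102) lost the call. Ada, an enzyme of purine breakdown, was called in lung on 276 CPM in library 6B against a median of 6.46 CPM, and the Ada lung rhythm was not called without the libraries that stand apart (adjusted p = 0.8). Lipe, hormone-sensitive lipase, was rhythmic in lung (22.5 ± 0.7 h, 1.03 ± 0.19 log2, adjusted p = 0.0238) at 42.5 to 143 CPM, and showed 0.13 ± 0.26 log2 in white fat at 631 to 3038 CPM. The Lipe difference between tissues did not pass (adjusted p = 0.0915), but did without library 0B (adjusted p = 0.045).

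Of the 11 genes rhythmic in both tissues outside the clock lists, 9 peaked within 3 h of each other. Adh1, an alcohol and retinol dehydrogenase, had 215, 446 and 566 CPM in white fat, with 178, 240 and 328 CPM in lung, and peaked at 14 ± 0.9 h in white fat and 13.5 ± 0.5 h in lung. Tubb5, a tubulin, peaked at 11.1 ± 0.5 h and 10.6 ± 0.9 h in white fat and lung, and Figf, the growth factor VEGF-D, at 14.6 h in each. The exceptions were Cdkn1a, described above, with a fat minus lung peak of −8.4 h, and Naa60, an acetyltransferase of the Golgi, at −3.5 h. The Naa60 difference did not pass (adjusted p = 0.0513), but did without library 0B (adjusted p = 0.0159). The white fat calls of Figf, Bphl and Cpt1a, all among the 9, were lost without library 0B (adjusted p = 0.0645, 0.0592 and 0.109).

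In ad libitum mice the tissues were close in their number of rhythmic genes. In the fit of all 96 Alb-Cre libraries, 1082 of 11737 genes (9.22%) were rhythmic in ad libitum white fat and 1026 (8.74%) in ad libitum lung, and 61 (0.52%) differed between them. The same fit gave 2656 (22.6%) in daytime-fed white fat, 62 (0.528%) in daytime-fed lung and 558 (4.75%) differing. Of the 15 clock genes, 13 were rhythmic in ad libitum white fat and 14 in ad libitum lung. The interaction, whether the white fat minus lung rhythm difference itself changed with feeding, passed for 344 genes (2.93%), and for 187 (1.6%) without white fat library 0B of the daytime-fed and 14B of the ad libitum mice, and for 83 (0.7%) when the lung libraries that stand apart were left out as well.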

How the data were processed

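RNA of white fat and lung was sequenced at 12 times of day with 2 libraries a time in each tissue and regimen. Per the labels, cDNA was equalised by qPCR of actin, indexed, pooled and amplified by in vitro transcription, and the submitters' processing notes name bcl2fastq, cutadapt, STAR, HTSeq, DESeq2 and mm10 with no versions. The authors deposited raw read counts per gene, which were used for all results, beside a normalized signal (each library's counts divided by a single factor), which was not used for any test. The strand setting is not given in the sources used here.

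Counts were filtered with filterByExpr and scaled by TMM in edgeR 4.0.16 (R 4.3.3). The main fit of 48 libraries had a mean, cosine and sine of 24 h per tissue (6 coefficients, 42 residual df), with quasi-likelihood F tests adjusted by Benjamini-Hochberg at 0.05. Peak and peak-to-trough come from least squares on log2 CPM with a prior count of 2. A fit of 96 libraries added the ad libitum mice. The code was tested on simulated data. Alternatives were RLE scaling, no filter, thinning, a 12 h harmonic, each tissue alone, blocks, DESeq2 1.42.0 and left-out libraries.

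Members and lists were chosen with earlier results of these data known. Besides members of the lists (2 to 4 a group, by lowest p), the text names the 12 lowest p in white fat, the 12 in lung and the 10 in the difference, at 10 CPM or more and 0.58 log2 or more, and genes rhythmic in both tissues within 3 h (5 by p). Other genes named were chosen after their values were seen, among them Figf, Naa60, Eci2, Ada and those of the letter comparison. Some genes given by these rules are not reported here.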

Additional observations from a re-analysis of the deposited data

Results flagged for a closer look

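The rhythm difference between white fat and lung depended on feeding for 344 of 11737 genes by the interaction test in edgeR's quasi-likelihood fit; the count was 187 without the white fat libraries that stand apart and 83 without those of either tissue. Among clock genes the interaction passed for Ciart (adjusted p = 2.5e-07), Nfil3 (0.00158), Arntl (0.0205), Tef (0.0315) and Nr1d1 (0.0387). The call of Ciart held in all 22 alternatives tried, while that of Nfil3 changed in 3, Arntl in 6, Tef in 8 and Nr1d1 in 13.

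White fat library 0B of the daytime-fed mice carried 10.8% of its counts on symbols outside the 13243 compared here, with 22202 CPM of the epididymal gene Gpx5, against at most 453 CPM in the other 23 white fat libraries.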

How the results depend on the processing

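The rhythmic genes in daytime-fed white fat (1866) numbered 1080 in thinned libraries, 1022 with the tissue fitted alone and 1113 at 1.5-fold or more. With white fat fitted alone and library 0B left out they numbered 1626. The rhythmic genes in daytime-fed lung (39) numbered 61 without white fat library 0B, 62 with the ad libitum libraries in the fit, 73 with the tissue fitted alone and 65 by DESeq2. The genes whose rhythm differs between white fat and lung (257) numbered 169 in thinned libraries and 558 with the ad libitum libraries in the fit. The genes whose white fat minus lung rhythm difference depends on feeding (344) numbered 150 in thinned libraries, 187 without the white fat libraries that stand apart and 83 without those of either tissue. Leaving out each time point or letter in turn gave 290 to 1920 for white fat, 4 to 73 for lung, 27 to 268 for the difference and 20 to 383 for the interaction; the lowest values came from leaving out letter A (white fat, difference) or letter B (lung, interaction), which removes 1 of the 2 libraries at each time. The clock phase difference white fat minus lung kept its direction, from −9.91 to −7.01 h. The clock amplitude difference white fat minus lung ran from −0.87 without letter A to 0.24 without letter B, where it turned round, and was −0.72 over clock genes rhythmic in both tissues; the cause was not tested. With a replicate block the counts were 1769 for white fat, 35 for lung, 208 for the difference and 299 for the interaction. Deviations of same-labelled white fat and lung libraries correlated with a median r of 0.166 (0.0602 to 0.428), over 0.1 in 22 of 24 pairs, against a median of −0.00487 for other pairs; 19 of 24 white fat and 21 of 24 lung libraries correlated best with their own label. This is a hint from the data that same-labelled libraries are paired, which the labels do not state. Over single genes, 8304 values kept their call, 102 gained it and 862 lost it. Lung libraries were shallower, and thinning to the shallowest total bears on that.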
